A study of Mus musculus with 10 samples.

Results

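The genes described here encode the proteins of the cytosolic ribosome. They were chosen by name, as identifiers of the count table called Rpl, Rps or Rplp with a number (and at most a letter a or x and a further digit), that are no pseudogenes and reach at least 100 counts over the 10 libraries. The name matched 78 identifiers, of which 2 (Rps3a2 and Rps3a3) are annotated as pseudogenes. The remaining 76 genes of 55421 identifiers were kept, 30 of the small and 46 of the large subunit. All 76 were among the 22449 genes with at least 10 counts that entered the tests.

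Poly(A) RNA-seq was done on whole livers of 10 male C57BL/6 mice to ask what loss of the histone variant H3.3 from hepatocytes does to the liver transcriptome. The H3.3 KO group held 4 mice with floxed H3f3a and floxed H3f3b (H3f3afl/fl_H3f3bfl/fl) that received AAV8-Tbg-Cre, an adeno-associated virus carrying Cre recombinase under the hepatocyte promoter Tbg. The WT Cre controls were 3 wild-type mice with the same virus, and the MCS controls were 3 floxed mice with AAV8-Tbg-MCS, which carries no Cre. Injection was at an age of 6 months and the liver was collected 3 weeks later, so every animal had received AAV8 and every library held RNA of the other liver cells as well, in which Tbg is not active. A genotype field of the labels names HIRA for the floxed animals, whereas titles and series text name both H3.3 genes, and the groups follow the titles. Control columns of the table carry only a number and were matched to the 2 kinds of control by that number. Values for WT Cre or MCS livers alone depend on this matching, and the comparison of H3.3 KO with all 6 controls does not.

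A ribosome is built from a small subunit, which holds the mRNA and reads the codons, and a large subunit, which joins the amino acids and lets the new protein leave through a tunnel. Most of its proteins are present in a single copy, and a lack of one can stall the assembly of its subunit. The mRNAs of ribosomal proteins are among the classical TOP mRNAs, which begin with a C followed by an uninterrupted run of pyrimidines and are held back from translation together when mTOR signalling is low.

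The promoters were searched for short sequence features, and none was shared by all of these genes. A RefSeq table of 300-base promoters (build GRCm38.p6, 250 bases before to 50 bases after each annotated start) matched 56 of the 76 genes. An uninterrupted run of at least 8 C or T letters on the transcribed strand, within 20 bases of an annotated start, was present in 28 of these 56 genes and in 18.4% of all 27025 genes in the table. The letters CGGAAG, the core bound by ETS family factors, were found on either strand in 69.6% of the 56 genes against 18.8% of all genes, and TATAAA in 10.7% against 15.7%. The windows below, from 10 bases before to 20 bases from the start onwards, are shown because they belong to genes at either end of the fold changes described further on. Among the 6 genes with the largest falls and the 3 with the highest values they are those with a single annotated start in the table, and capitals mark the longest run of C and T.
Rps2 (chr17:24720053-24720082, plus strand): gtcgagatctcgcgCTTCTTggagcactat
Rpl28 (chr7:4792955-4792984, plus strand): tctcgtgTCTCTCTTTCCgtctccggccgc
Rps28 (chr17:33824543-33824572, minus strand): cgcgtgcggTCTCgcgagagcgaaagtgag
Rpl12 (chr2:32961702-32961731, plus strand): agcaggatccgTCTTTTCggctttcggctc
Rpl41 (chr10:128549149-128549178, minus strand): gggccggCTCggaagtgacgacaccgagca
The run spanned 11 bases across the start of Rpl28, 7 bases just after that of Rpl12 and 6 after that of Rps2, and was 4 bases or fewer in Rps28 and Rpl41. An annotated start can lie off the position where transcription begins, so a short run says only that these letters are not in this window. Of the matched genes, the run of at least 8 was found in 7 of 16 that were called lower in H3.3 KO livers and in 21 of 40 that were not, CGGAAG in 11 of 16 and 28 of 40, and TATAAA in 4 of 16 and 2 of 40. These splits are descriptions and were not tested.

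The libraries held between 14998426 and 26096141 counts, and the smallest was H3.3 KO replicate 1. The targeted genes followed the labels. H3f3a had 59.9 to 63.7 CPM (counts relative to the TMM-scaled library total) in the 6 control livers and 16 to 19 in the 4 H3.3 KO livers, and H3f3b 136 to 204 against 39.8 to 56.7. Scaling differed between groups. TMM factors, which set the middle of most genes equal between libraries, ran from 0.977 to 1.02 in WT Cre, from 0.858 to 0.941 in MCS and from 1.02 to 1.11 in H3.3 KO livers. With library size alone the middle of all genes (median log2 fold change, H3.3 KO over controls) moved from -0.0030 to 0.17, and the calls over all genes from 19.7% higher and 16.6% lower to 25.1% higher and 9.68% lower. Changes of the ribosomal protein genes are therefore given relative to the TMM scale unless another is named.

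Ribosomal protein mRNAs took about the same part of the counts in every group. Their summed share was 0.943%, 1.02% and 0.981% of all counts in the WT Cre livers, 1.12%, 1.12% and 0.959% in the MCS livers and 1.03%, 0.949%, 0.966% and 1.13% in the H3.3 KO livers. The groups overlapped, with a mean of 1.03% ± 0.080 (SD, n = 6) in the controls and 1.02% ± 0.082 (SD, n = 4) in the H3.3 KO livers. The ratio of these means was 0.993, and it lay between 0.956 and 1.02 when any 1 library was left out. In whole tissue, fewer cells of a type and less RNA per cell cannot be told apart.

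On the TMM scale the group lay lower in the H3.3 KO livers. The median log2 CPM over the 76 genes was 6.85, 6.96 and 6.87 in the WT Cre livers, 7.18, 7.19 and 7.04 in the MCS livers and 6.81, 6.70, 6.65 and 6.93 in the H3.3 KO livers. H3.3 KO replicate 4 lay above 2 of the WT Cre livers, and the MCS livers lay above all 7 others. The order of the groups was thus MCS, WT Cre and H3.3 KO, with an overlap between the last 2.

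**Figure D1:**
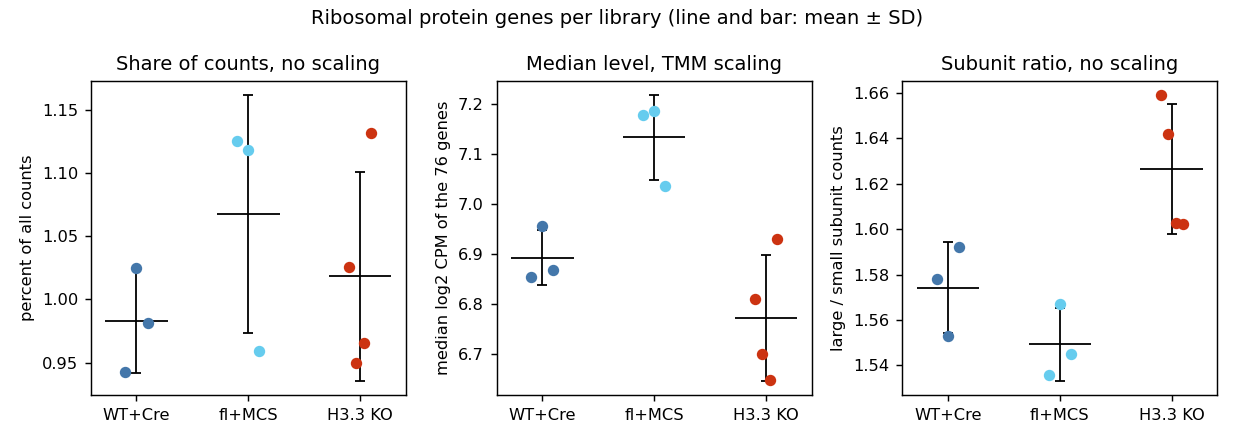
Ribosomal protein genes in each of the 10 livers, with the mean and SD of each group: their share of all counts (left, percent, no scaling), their median log2 CPM (middle, TMM scaling) and the counts of large over those of small subunit genes (right). The shares overlap between groups, the MCS livers have the highest medians, and the 4 H3.3 KO livers have the highest subunit ratios.

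In H3.3 KO livers against all 6 controls, 20 of the 76 genes (26.3%) fell and none rose at an adjusted p under 0.05 (edgeR quasi-likelihood test, Benjamini-Hochberg over all 22449 genes). Over all genes tested, 16.6% were called lower and 19.7% higher. The median log2 fold change of the 76 genes was -0.20, with quartiles of -0.31 and -0.11, against a median of -0.0030 and quartiles of -0.43 and 0.58 over all genes. The shifts were small. They ran from -0.54 (Rps2) to 0.23 (Rps28), and none of the 76 genes passed an absolute log2 fold change of 1 with an adjusted p under 0.05, which 18.7% of all genes did. At an unadjusted p under 0.05, 1 gene was higher and 32 were lower. limma voom called 0 higher and 21 lower, and DESeq2 called 1 higher (Rps28) and 18 lower.

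The size of the shift and the calls rested on the scaling. DESeq2, which scales the libraries in its own way, gave a median of -0.18, near the -0.20 of the TMM scale. With library size alone the median of the 76 genes was -0.02, while that of all genes was 0.17, and 3 were called higher (Rps28, Rpl12 and Rpl41) and 1 lower (all genes 25.1% and 9.68%). All but 1 of the 20 lower calls ended on that scale, those of every ribosomal protein gene named below as falling against all controls among them. The number called lower also rested on single animals. It was 6 without H3.3 KO replicate 3, 7 without H3.3 KO replicate 2, 12 without MCS replicate 1 and 13 without MCS replicate 2. Without H3.3 KO replicate 1, 26 were lower and 1 was higher.

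The 2 kinds of control gave different pictures. Against the MCS livers, 42 of the 76 genes were called lower (all genes 14.8%) and none higher (all genes 17.3%), with a median log2 fold change of -0.31. edgeR found 0 higher and 55 lower here at an unadjusted p under 0.05, and limma voom and DESeq2 called 44 and 45 lower and none higher. Against the WT Cre livers, 3 were called lower (all genes 13.1%) and 2 higher (all genes 15.3%), with a median of -0.08. With library size alone the calls were 3 lower and 1 higher against the MCS livers (all genes 7.56% and 24.9%) and 0 lower and 4 higher against the WT Cre livers (all genes 9.39% and 17.8%). The number called lower against the MCS livers was 20 without MCS replicate 2 or without H3.3 KO replicate 2, 21 without H3.3 KO replicate 3 and 22 without MCS replicate 1. Against the WT Cre livers it was 0 without any 1 of WT Cre replicates 1, 2 and 3 or H3.3 KO replicates 2 and 3, 6 without H3.3 KO replicate 4 and 8 without H3.3 KO replicate 1. The number called higher there was 0 without WT Cre replicate 1 or 3 or H3.3 KO replicate 2 or 4, 1 without WT Cre replicate 2, MCS replicate 1 or 2 or H3.3 KO replicate 3, and at most 3. Both comparisons share the 4 H3.3 KO livers.

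The controls also differed from each other. WT Cre over MCS livers gave a median log2 fold change of -0.25 for the 76 genes and -0.11 with library size alone, where the median of all genes was 0.14. All 3 WT Cre livers lay below all 3 MCS livers for 61 of the 76 genes, and for 11.2% of all genes. No single gene was called by edgeR (all genes 0.441% higher and 0.486% lower), with 36 lower and 0 higher at an unadjusted p under 0.05. limma voom also called none, while DESeq2 called 6 lower, namely Rps2, Rplp1, Rpl27a, Rpl3, Rpl19 and Rpl35a. In the edgeR fit of all 3 groups, 3 were lower without H3.3 KO replicate 1 and 1 without H3.3 KO replicate 4. The 2 kinds of control differ in the alleles and in the virus, which cannot be told apart.

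**Figure D2:**
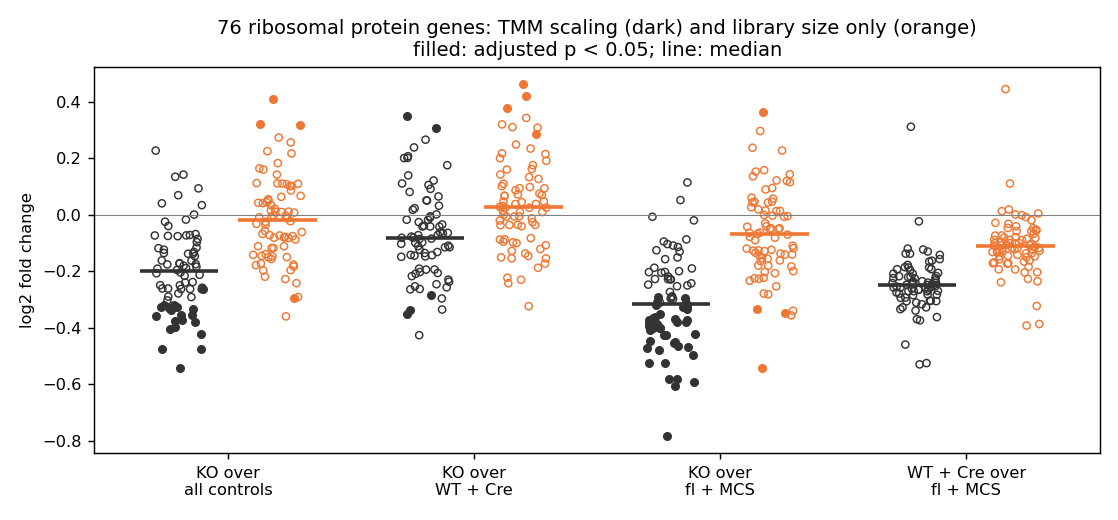
Log2 fold changes of the 76 ribosomal protein genes in 4 comparisons, 1 circle per gene, on the TMM scale (dark) and with library size alone (orange); filled circles have an adjusted p under 0.05 and lines are medians. The dark medians are -0.20, -0.08, -0.31 and -0.25 from left to right, and the orange ones are -0.02, 0.03, -0.07 and -0.11, so the median against the WT Cre livers changes its sign with the scaling.

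Markers of several cell types also differed between the groups. Of the 10 hepatocyte markers 7 were lower in the H3.3 KO livers and none higher, and their summed level was 83451 to 96963 CPM in H3.3 KO, 107860 to 119097 in WT Cre and 130099 to 153354 in MCS livers, in the same order as the median of the ribosomal protein genes. All 10 Kupffer cell markers were higher in the H3.3 KO livers, with a summed level of 579 to 1257 CPM against 248 to 468 in the controls, as were 9 of 10 stellate cell and fibroblast markers (505 to 811 against 221 to 282 CPM), 7 of 10 B, T and plasma cell markers (7.82 to 94.1 against 4.97 to 8.21 CPM) and 5 of 6 cell cycle genes (48.9 to 65.9 against 30.0 to 38.4 CPM). Of 10 endothelial markers 2 were higher (294 to 491 against 268 to 329 CPM), of 10 cholangiocyte markers 2 were higher and 1 lower (76.1 to 95.8 against 55.0 to 86.9 CPM), and 3 of the 4 neutrophil markers tested, of 6, were higher (5.86 to 27.1 against 3.3 to 12.1 CPM). With library size alone 1 hepatocyte marker was higher and 6 were lower, and 8 endothelial markers were higher. Over all genes 19.7% were called higher and 16.6% lower, and with library size alone 25.1% and 9.68%. None of 5 red blood cell genes was called by edgeR or DESeq2 or had an unadjusted p under 0.05, and limma voom called 1 lower (52.3 to 219 against 125 to 324 CPM). No marker was at 0 in every library of a group. The part of other cells in the levels of the ribosomal protein genes was not tested.

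The largest fall belonged to Rps2 (ENSMUSG00000044533.15), which lies at the mRNA entry side of the small subunit. It had 309, 338 and 308 CPM in the WT Cre livers, 462, 466 and 450 in the MCS livers and 350, 233, 238 and 248 in the H3.3 KO livers. H3.3 KO replicate 1 lay above all 3 WT Cre livers, while the other 3 lay below all 6 controls. The log2 fold change was -0.54 (SE 0.17, adjusted p = 0.0238) against all controls, -0.25 (SE 0.14, adjusted p = 0.208) against WT Cre and -0.78 (SE 0.14, adjusted p = 0.00147) against MCS livers. Against all controls it was -0.36 with library size alone (adjusted p = 0.0639). The 2 kinds of control differed by -0.53 (SE 0.15, adjusted p = 0.162 by edgeR). Exons of Rps2 overlap Snora64 on the same strand and Snhg9 on the other, and since the strand setting of the counting is not stated their reads may be shared.

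Among the large subunit genes the largest falls were those of Rpl36, Rpl22 and Rpl28. Rpl22 (ENSMUSG00000028936.15) had 94.8, 92.0 and 84.1 CPM in WT Cre, 100, 102 and 93.8 in MCS and 80.9, 70.4, 66.1 and 68.5 in H3.3 KO livers. It fell by 0.40 on the log2 scale (SE 0.09, adjusted p = 0.00441), by 0.34 (adjusted p = 0.0273) against WT Cre and by 0.47 (adjusted p = 0.00454) against MCS livers. Its paralog Rpl22l1, which the name rule does not take in, moved the other way against all controls (log2 fold change 0.58, SE 0.16, adjusted p = 0.0128). It had 12.8 to 23.5 CPM in the controls and 20.9 to 31.0 in the H3.3 KO livers, which overlapped. Against the MCS livers alone edgeR called none of the 7 tested paralogs. Rpl28 fell from 157 to 208 CPM in the controls to 127 to 143 in the H3.3 KO livers (-0.40, SE 0.11, adjusted p = 0.0108), and Rpl36 from 73.7 to 110 to between 61.0 and 71.9 (-0.42, SE 0.12, adjusted p = 0.0159). Neither overlapped. Scaled by library size alone, the log2 fold changes were -0.23 for Rpl22 (adjusted p = 0.0645), -0.22 for Rpl28 (adjusted p = 0.114) and -0.24 for Rpl36 (adjusted p = 0.125), and Rpl22 had -0.23 against the WT Cre livers (adjusted p = 0.113). In all, 14 of the 76 genes had every H3.3 KO liver below every control and 0 had every one above, against 12.0% and 12.5% of all genes. Against the WT Cre livers alone 14 lay below and 4 above without overlap (all genes 18.5% and 17.4%), and against the MCS livers alone 51 and 0 (all genes 17.8% and 17.7%).

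At the other end stood Rps28, a small protein of the mRNA exit side that is mutated in Diamond-Blackfan anaemia, an inherited red cell aplasia. It was named, as were Rpl12, Rpl18, Rps23 and Rpl29, after its values were seen. Rps28 had 63.9, 67.8 and 60 CPM in WT Cre, 75.9, 80.2 and 69.5 in MCS and 73.6, 84.0, 77.7 and 90.3 in H3.3 KO livers. It was above every WT Cre liver and overlapped the MCS livers, with a log2 fold change of 0.23 (SE 0.10, adjusted p = 0.0988) against all controls and 0.35 (SE 0.11, adjusted p = 0.0269) against WT Cre. Rpl12, which helps to form the base of the P stalk, had 95.0, 96.9 and 82.7 CPM in WT Cre, 119, 117 and 109 in MCS and 111, 106, 109 and 127 in H3.3 KO livers. It was called higher against WT Cre livers (0.31, SE 0.11, adjusted p = 0.0478) and not against all controls (0.14, SE 0.11, adjusted p = 0.393). Exons of Rps28 and Rpl12 overlap Kank3 and Lrsam1 on the opposite strand, and Rpl12 also Snora65 on its own. Such overlaps are frequent. An exon overlaps another gene in 36 of the 76 genes, and in 26 of them on the same strand. Rpl28, named above among the falls, overlaps Ube2s on the opposite strand.

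**Figure D3:**
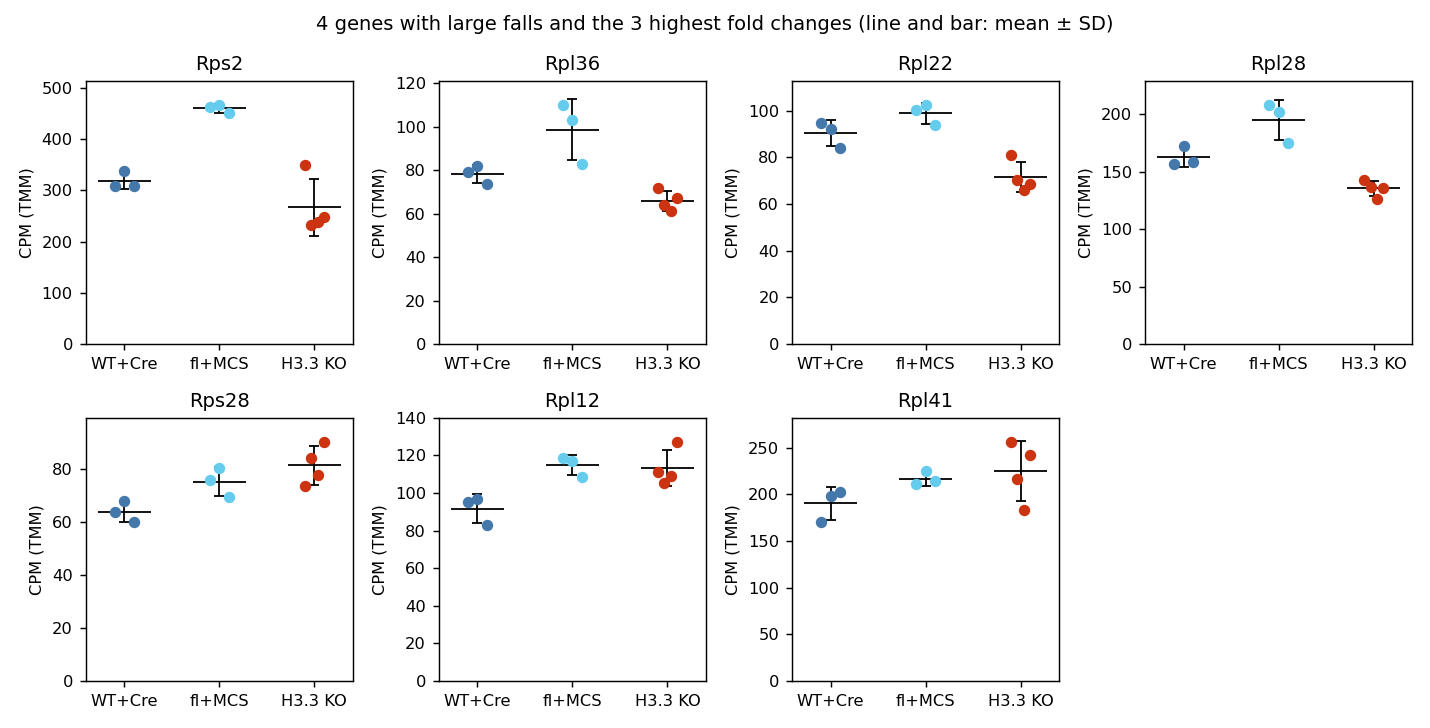
CPM (TMM scaling, axes from 0) of 4 of the ribosomal protein genes with the largest falls and the 3 with the highest log2 fold changes, 1 point per liver, with the mean and SD of each group. H3.3 KO livers lie below all controls for Rpl36, Rpl22 and Rpl28, H3.3 KO replicate 1 stands apart for Rps2 at 350 CPM, and Rps28, Rpl12 and Rpl41 overlap the MCS livers.

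By role, the P stalk, which recruits the elongation factors, was not called against all controls in any of its 4 genes, nor by DESeq2 or limma voom, and none had an unadjusted p under 0.05. Rplp0 had 261 to 327 CPM in the controls and 256 to 310 in the H3.3 KO livers (log2 fold change -0.10, SE 0.10, adjusted p = 0.510), and the values were -0.09 (adjusted p = 0.700) for Rplp1 and -0.21 (adjusted p = 0.142) for Rplp2. With library size alone Rplp0 and Rplp1 had positive fold changes of 0.09 and 0.10. Rplp1 showed how far the controls lay apart, with 179, 210 and 181 CPM in WT Cre and 268, 279 and 273 in MCS livers, while the H3.3 KO livers had 242, 208, 194 and 230, below all MCS livers and overlapping the WT Cre livers.

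The 5S RNP joins Rpl5 and Rpl11 with the 5S rRNA and, when free, restrains the p53 ligase Mdm2. Rpl11 fell (-0.34, SE 0.11, adjusted p = 0.0302), from 115 to 152 CPM in the controls to 98.2 to 119 in the H3.3 KO livers, which overlapped, and had -0.16 with library size alone (adjusted p = 0.267). Rpl5 had 135 to 151 CPM against 118 to 144 (-0.15, SE 0.09, adjusted p = 0.228), and 0.03 with library size alone. Neither Rpl11 nor Rpl5 was called against the WT Cre livers. The peptidyl transferase centre, where the peptide bond is made, is flanked by Rpl3, Rpl4, Rpl8 and Rpl10. Against all controls none of the 4 was called by edgeR, DESeq2 or limma voom, and 1 was lower at an unadjusted p under 0.05. Against the MCS livers the 3 methods called 2, 2 and 3 lower. Against the WT Cre livers DESeq2 called 1 higher, and edgeR and limma voom called none. Rpl3 had 132 to 191 CPM in the controls and 158 to 183 in the H3.3 KO livers (0.07, SE 0.12, adjusted p = 0.692), and Rpl10 had -0.18 (adjusted p = 0.223).

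Of the 8 genes at the exit tunnel and its rim, 1 fell, Rpl39, a small protein in the tunnel wall, from 49.0 to 60.8 CPM in the controls to 38.6 to 47.9 in the H3.3 KO livers (-0.38, SE 0.10, adjusted p = 0.00826), with -0.20 under library size alone (adjusted p = 0.121). The share called lower was 12.5%, beside 16.6% of all genes. Against the WT Cre livers edgeR called none of these 8 genes. Of the 6 genes of the decoding site and mRNA path 3 fell (50%), namely Rps2, Rps23 (-0.36, adjusted p = 0.00870) and Rps26 (-0.32, adjusted p = 0.0260). Rps28 is also among the 6 and had a positive value (0.23). Against all controls edgeR called none of the 6 higher, and DESeq2 called 1 higher. With library size alone 1 of the 6 was higher and none lower. Against the WT Cre livers edgeR called 1 of the 6 higher and 1 lower. Rps23 carries a conserved loop near the decoding centre, and it alone of the 6 also fell against the WT Cre livers (-0.28, adjusted p = 0.0490). Rps23 had -0.18 (adjusted p = 0.174) and Rps26 -0.14 (adjusted p = 0.30) under library size alone against all controls, and Rps23 -0.17 (adjusted p = 0.266) against WT Cre livers. Of the 18 genes linked to Diamond-Blackfan anaemia 3 were lower (16.7%, near the 16.6% of all genes), among them Rps26 and Rpl11, and none higher by edgeR, with 5 lower and 1 higher at an unadjusted p under 0.05, while DESeq2 also called 1 higher. With library size alone 1 was lower and 1 higher. Rps19, the gene most often mutated in that disease, had 86.0 to 103 CPM in the controls and 76.8 to 99.9 in the H3.3 KO livers (-0.08, SE 0.10, adjusted p = 0.587), with 0.10 under library size alone.

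The remaining genes chosen for their known roles lay within the same small range. Rps6, whose protein is phosphorylated by the S6 kinases below mTOR, fell by 0.26 (SE 0.09, adjusted p = 0.0422), without overlap between 89.0 to 111 CPM in the controls and 79.1 to 88.3 in the H3.3 KO livers. Rpl13a, known from a translational silencing complex in interferon-treated cells, fell by 0.33 (adjusted p = 0.0254). Against the WT Cre livers Rpl13a was not called lower. On library size alone Rps6 had -0.08 (adjusted p = 0.538) and Rpl13a -0.15 (adjusted p = 0.335). Rps4x had -0.26 (adjusted p = 0.0627), Rps27a, which is made as a fusion with ubiquitin, -0.26 (adjusted p = 0.0899), and Rpl41, the shortest of the proteins, 0.14 (adjusted p = 0.371). The name rule does not take in every core ribosomal protein. Of those it leaves out, Rpsa, Fau and Rack1 had -0.13, -0.13 and -0.07 against all controls without a call, and 0.06, 0.05 and 0.11 with library size alone.

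**Figure D4:**
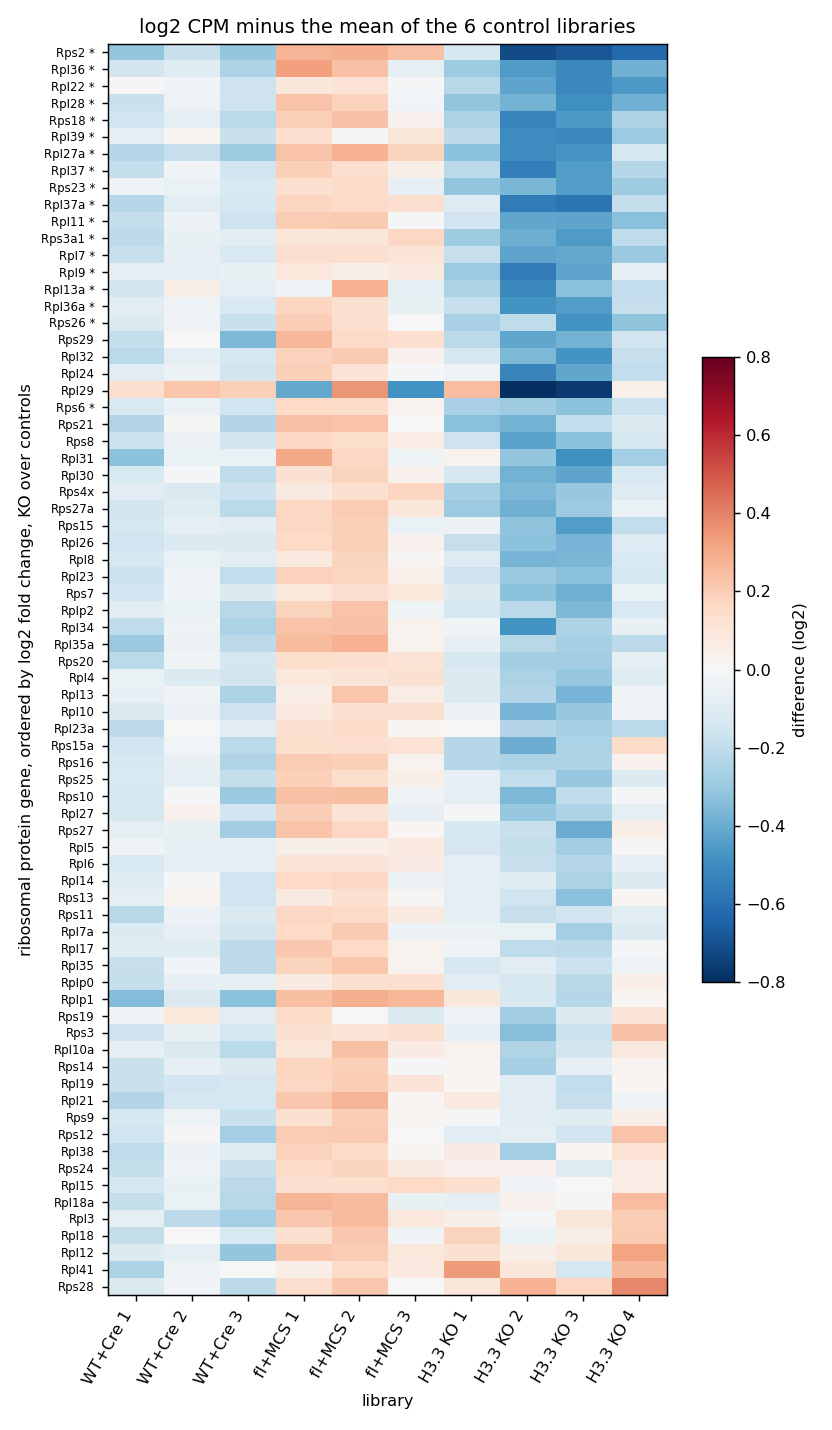
Log2 CPM of 74 of the 76 ribosomal protein genes in each of the 10 livers, minus the mean of the 6 controls (colour scale, log2), ordered by the log2 fold change of H3.3 KO over controls; asterisks mark an adjusted p under 0.05. WT Cre columns are mostly pale blue, MCS columns red and H3.3 KO columns blue for most genes, deepest in replicates 2 and 3, while Rpl29 varies among the MCS (fl+MCS) and among the H3.3 KO livers.

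Variation between animals was not the same for all genes. The coefficient of variation over the 6 controls ran from 4.70% (Rpl5) to 22.8% (Rpl29), with a median of 10.6%, and over the 4 H3.3 KO livers from 3.68% to 36.7%, with a median of 9.26%. Rpl29 had 82.4, 88.0 and 86.2 CPM in WT Cre, 56.6, 96.1 and 53.9 in MCS and 89.3, 43.4, 44.4 and 77.7 in H3.3 KO livers, so that high and low animals occurred in both of the floxed groups. Its log2 fold change was -0.28 with an SE of 0.24 (adjusted p = 0.410), the largest SE of the 76 genes, whose median SE was 0.11. Per transcript length, the median level in the controls ran from 82.4 FPKM (Rpl12) to 520 FPKM (Rplp1) over 75 genes, with a median of 178 FPKM. Rpl13 was blank in the FPKM table in every library, although it had counts.

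The composition of the pool does not depend on how the libraries are scaled. Large subunit genes had 1.58, 1.55 and 1.59 counts per count of small subunit genes in WT Cre, 1.54, 1.57 and 1.55 in MCS and 1.66, 1.64, 1.60 and 1.60 in H3.3 KO livers. The H3.3 KO livers lay above all controls, with a mean of 1.63 ± 0.029 (SD, n = 4) against 1.56 ± 0.021 (SD, n = 6). Without Rps2 the means were 1.76 ± 0.053 and 1.72 ± 0.018, with an overlap, and the median log2 CPM of the large minus that of the small subunit genes was -0.03 ± 0.026 against -0.05 ± 0.017, also with an overlap. The difference between the group means was 0.065 with Rps2 and 0.038 without it.

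Within the pool, the shares of some single genes differed between the groups. Such shares add up to a fixed total, so a gain of some genes entails a loss of others. Per 1000 counts of the 76 genes, Rps28 had 6.62, 6.59 and 6.26 in WT Cre, 6.35, 6.62 and 6.21 in MCS and 7.34, 9.48, 8.89 and 8.88 in H3.3 KO livers. Rpl12 rose from 8.63 to 9.94 in the controls to 11.1 to 12.5 in the H3.3 KO livers. Both kinds of control were close together here, and the H3.3 KO livers did not overlap them. With the summed counts of the 76 genes as the library size, an alternative added after the data were seen, 3 genes were called higher in H3.3 KO livers, namely Rps28 (0.42, SE 0.11, adjusted p = 0.00824), Rpl12 (0.33, SE 0.11, adjusted p = 0.0277) and Rpl41 (0.33, SE 0.12, adjusted p = 0.0424), and 0 lower, with 6 higher and 3 lower at an unadjusted p under 0.05. Over all genes, 23.4% were called higher and 8.18% lower on that scale, beside 3.95% higher and none lower of the 76 genes.

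On the same scale 9 of the 76 genes had every H3.3 KO liver above every control and 9 had every one below, against 14.5% and 6.11% of all genes. The first were Rps28, Rpl12, Rpl18, Rpl3, Rpl15, Rps24, Rps9, Rpl19 and Rpl17, and the second included Rpl36, Rpl22, Rpl28, Rps18, Rpl37, Rpl7 and Rps3a1. Rpl18 went from 10.5 to 11.6 per 1000 in the controls to between 13.0 and 14.2 in the H3.3 KO livers (0.29, SE 0.11, adjusted p = 0.0509), which did not pass the threshold. Rpl36 went from 7.41 to 9.20 to between 6.58 and 7.20.

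**Figure D5:**
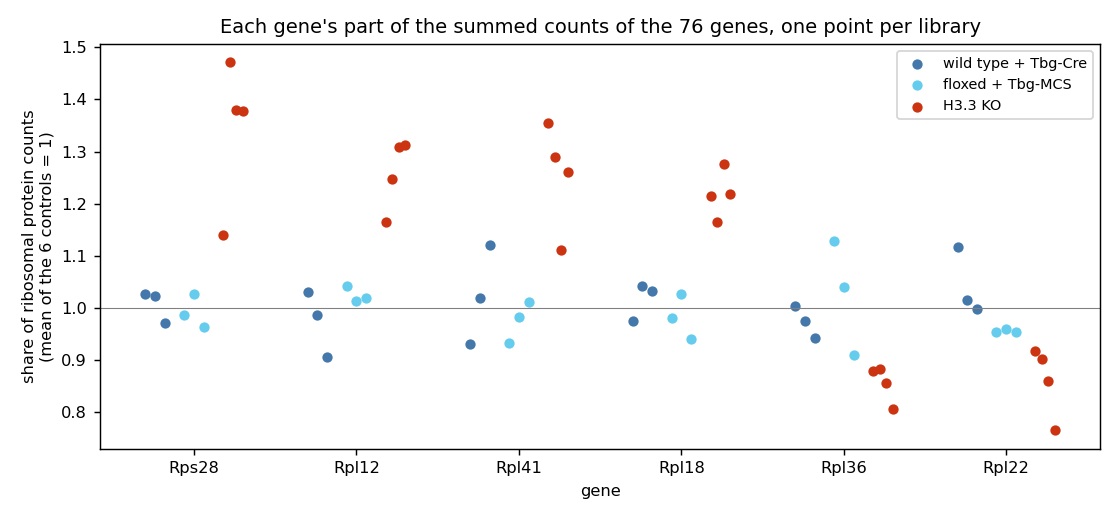
Share of 6 genes in the summed counts of the 76 ribosomal protein genes, 1 point per liver, relative to the mean of the 6 controls (set to 1); the genes were picked after their values were seen. H3.3 KO livers lie above all controls for Rps28, Rpl12 and Rpl18 and below all for Rpl36 and Rpl22, while Rpl41 overlaps.

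Around the ribosomal proteins, the machinery that makes and uses ribosomes was called in both directions in most lists. The shares below stand beside 19.7% higher and 16.6% lower over all genes, and beside 25.1% and 9.68% with library size alone, and no list was tested against the other genes. Of 81 ribosome biogenesis genes 9 were higher (11.1%) and 11 lower (13.6%), with a median log2 fold change of -0.01, and 18 were higher (22.2%) and 3 lower (3.70%) with library size alone. Nmd3, the export adaptor of the large subunit, fell from 25.4 to 31.6 CPM in the controls to 15.8 to 18.8 in the H3.3 KO livers (-0.70, adjusted p = 0.000133), and Rrp1b rose (0.70, adjusted p = 0.00920). Of 38 initiation genes 3 were higher (7.89%) and 7 lower (18.4%), against 8 and 2 with library size alone (21.1% and 5.26%), among them the helicase Eif4a2 (-0.68, adjusted p = 0.000303) and Eif6 (0.90, adjusted p = 0.000747), which keeps free large subunits from joining, from 38.2 to 45.3 CPM in the controls to 59.9 to 116 in the H3.3 KO livers. Of 16 tested genes of elongation and other TOP mRNAs 3 were higher and 3 lower (18.8% each), with a median of -0.11, against 5 and 1 with library size alone (31.2% and 6.25%). The largest changes were those of Vim (1.51, adjusted p = 9.91e-06), which is mainly known as a filament protein of mesenchymal cells, and Eif5a2 (1.39, adjusted p = 0.00907).

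Ribosomal RNA is made by RNA polymerases I and III. Of 15 RNA polymerase I genes 3 were higher (20%, near the 19.7% of all genes) and none lower, with Taf1c (0.86, adjusted p = 0.00237) and Polr1e (0.61, adjusted p = 0.00336) in front, while 4 were higher and 2 lower at an unadjusted p under 0.05 and DESeq2 and limma voom called 3 and 2 higher and none lower. Of 22 RNA polymerase III genes 1 was higher (4.55%) and 5 lower (22.7%), against 3 and 4 with library size alone (13.6% and 18.2%), and the polymerases were not tested against each other. Polr3gl, a subunit that takes the same place as Polr3g, fell from 8.16 to 11.1 CPM in the controls to 2.78 to 3.37 in the H3.3 KO livers (-1.75, SE 0.13, adjusted p = 1.69e-06), and Polr3g fell as well (-0.81, adjusted p = 0.00676). Of 24 genes that control ribosomal protein synthesis 2 were higher (8.33%) and 4 lower (16.7%), against 5 and 1 with library size alone (20.8% and 4.17%), with Sesn2, an inhibitor of mTOR signalling, at 6.25 to 15 CPM in the controls and 16.4 to 33.8 in the H3.3 KO livers (1.06, adjusted p = 0.00542) and Mycn at 0.112 to 2.24 CPM against 0 to 0.268 (adjusted p = 0.0377), a gene of very few counts whose call ended with library size alone (adjusted p = 0.0511). Of 16 snoRNA host genes 4 were lower (25%) and none higher by edgeR, DESeq2 and limma voom (1 higher and 4 lower at an unadjusted p under 0.05, and 2 higher and 3 lower calls with library size alone), among them Snhg17 (-0.80, adjusted p = 0.000875) and Snhg9 (-1.18, adjusted p = 0.00484), which overlaps Rps2.

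Paralogs, mitochondrial counterparts and pseudogenes were counted as well. Of 7 tested paralogs, of 10 listed, 2 were higher (28.6%), Rpl22l1 and the scarce Rpl3l (0.0417 to 0.0893 CPM in the controls and 0.0791 to 0.306 in H3.3 KO livers, 1 to 8 counts a library, adjusted p = 0.0201), and none was lower by edgeR, DESeq2 or limma voom, with 1 lower at an unadjusted p under 0.05. DESeq2 called 1 higher, and edgeR called none against the MCS livers alone. With library size alone 4 were higher (57.1%, all genes 25.1%) and none lower. The 78 genes of the mitochondrial ribosome, a list added after the others, had 1 higher (1.28%) and 25 lower (32.1%) and a median of -0.21, beside -0.20 for the cytosolic genes, and 6 higher and 10 lower with library size alone. Of 298 ribosomal protein pseudogenes 198 could be tested, of which 11 were lower (5.56%, under the 16.6% of all genes) and none higher (30 and 0 at an unadjusted p under 0.05, 9 and 14 lower and none higher by DESeq2 and limma voom, and 3 lower with library size alone). The median log2 fold change of the 198 pseudogenes was -0.35, with 165 negative and 33 positive values, and -0.17 with library size alone. Pseudogenes took 2.44 to 2.85 counts per 100 counts of the 76 genes over the 10 libraries.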

How the data were processed

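Whole liver poly(A) RNA of 10 mice was sequenced from directional libraries. Per the study's methods the authors trimmed the reads with Trim Galore, aligned them to mm10 with STAR and counted them with HOMER, whereas the submitters' processing notes name HTSeq and Cufflinks beside STAR, so the tool behind the deposited table of counts per gene is not settled. The authors also deposited FPKM values (counts relative to gene length and library total), made by a tool not given in the sources used here. The strand setting of the counting is likewise not given. Each sample is a separate animal.

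Counts were tested with edgeR 4.0.16 in R 4.3.3 (TMM scaling, robust quasi-likelihood, no covariates) over genes with at least 10 counts in total, with Benjamini-Hochberg adjustment over all of them and calls at an adjusted p under 0.05. H3.3 KO against all controls was a fit of 2 groups, and comparisons with one kind of control used 3 groups with a shared dispersion. FPKM served as an alternative through limma 3.58.1 on log2(FPKM + 1) and log2(FPKM + 0.1), where a fold change understates that of low genes. DESeq2 1.42.0, limma voom, other scalings and filters, a gene length offset, a replicate block and the omission of each animal were further alternatives. The scripts were tested on simulated data. Pseudogene status and gene positions are from GENCODE M21 (mm10), and promoters from RefSeq.

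The genes and lists were chosen with earlier results of these data known. Named were the 6 genes with the largest falls among those called lower, genes of known role whatever their values, the 2 called genes with the largest change in each further list, and both H3.3 genes. Others are said to be chosen after their values were seen. A few genes that these rules name are not reported here, although counts and sums include them.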

Additional observations from a re-analysis of the deposited data

Results flagged for a closer look

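In Rps2, H3.3 KO replicate 1 had 350 CPM, while the other 3 H3.3 KO livers had 233 to 248 CPM. The gap to the next value was 0.865 of the whole range of the group, beyond the limit for 4 samples. It was the only value past such a limit among 54 groups of named genes examined. Chance gives about 1 in 20 groups, so 1 in 54 is not more than chance gives.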

How the results depend on the processing

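Library size only, the summed ribosomal protein counts as library size, and FPKM moved most results. Values for H3.3 KO are given in the order against all controls, against WT Cre and against MCS. With library size only, 3, 4 and 1 genes were higher, 1, 0 and 3 lower, and the medians were -0.018, 0.027 and -0.069 (WT Cre over MCS -0.11). With the summed ribosomal protein counts as library size, which was chosen after seeing the data, as were both variants of the subunit ratio, 3, 2 and 3 were higher and 0, 0 and 1 lower, with medians of -0.0027, -0.021 and -0.0025 (WT Cre over MCS 0.0063). With log2(FPKM + 1) and with log2(FPKM + 0.1), 8, 8 and 2 were higher and 1, 0 and 3 lower, with medians of 0.043, 0.082 and -0.023 (WT Cre over MCS -0.099) and of 0.043, 0.082 and -0.023 (WT Cre over MCS -0.099). DESeq2 gave 1 higher against all controls and 6 lower for WT Cre over MCS. Against WT Cre, upper quartile scaling gave 1 higher, no count filter 0 higher and 0 lower, the gene length offset 0 higher and 6 lower, and limma voom 5 lower. The causes were not tested.

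With a replicate block, 0 genes were higher against all controls, WT Cre and MCS, and 30, 5 and 43 were lower. Correlations of same-numbered samples ran from -0.17 to 0.22, so the numbers were not taken to pair the animals.

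Leaving out 1 animal gave 0 to 1 higher and 6 to 26 lower against all controls (median -0.24 to -0.15), 0 to 3 higher and 0 to 8 lower against WT Cre (-0.13 to -0.03), 0 higher and 20 to 52 lower against MCS (-0.36 to -0.26), and 0 higher and 0 to 3 lower for WT Cre over MCS (-0.29 to -0.22). The ratio of the shares of counts lay between 0.956 and 1.02.

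Signs of single genes against all controls turned without a call on either side. The log2 fold changes with library size only were Rplp0 0.086, Rplp1 0.10, Rpl5 0.035, Rps19 0.10, Rpsa 0.056, Fau 0.050 and Rack1 0.11. With the ribosomal protein counts as library size they were Rplp0 0.093, Rplp1 0.12, Rpl5 0.038, Rpl10 0.0015, Rps19 0.11, Rpsa 0.069, Fau 0.067 and Rack1 0.11. With log2(FPKM + 1) they were Rplp0 0.10, Rplp1 0.14, Rplp2 0.049, Rpl5 0.10, Rpl10 0.075, Rps19 0.15, Rpsa 0.087, Fau 0.097 and Rack1 0.13, and with log2(FPKM + 0.1) Rplp0 0.10, Rplp1 0.14, Rplp2 0.050, Rpl5 0.10, Rpl10 0.075, Rps19 0.15, Rpsa 0.088, Fau 0.098 and Rack1 0.13. With the gene length offset they were Rpl3 -0.056 and Rpl12 -0.0013. Of the other values of named genes under all alternatives, 1267 kept their direction and their side of the threshold, 161 lost a call and 33 gained one.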
